A study of Mus musculus with 6 samples.

Results

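Alcohol dehydrogenases (Adh), aldehyde dehydrogenases (Aldh), retinol dehydrogenases (Rdh) and flavin-containing monooxygenases (Fmo) were followed in livers of mice fed a high-fat diet and given atractylodin, a compound of Atractylodes plants, or vehicle. Members were every row whose gene symbol was Adh, Aldh, Fmo or Rdh followed directly by a digit, leaving out names that end in -ps. This gave 46 of 23282 rows, with 6 Adh, 21 Aldh, 7 Fmo and 12 Rdh genes. The pseudogene row Adh6-ps1 stayed in, since its name ends in a digit. The animals were male C57BL/6N mice that ate this diet for 12 weeks, starting when they were 8 weeks old. From the end of diet week 8, 1 group received atractylodin at 10 mg/kg by mouth on 5 days per week for 4 weeks and the other received vehicle, so both groups carried the diet. There were 3 vehicle and 3 atractylodin liver libraries, made by QuantSeq, which reads the 3′ end of each transcript. The labels do not say that each library came from its own animal, so p-values here reflect only library-to-library spread, which may be technical.

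Adh enzymes oxidise alcohols such as ethanol and retinol to aldehydes with NAD, and Aldh enzymes carry aldehydes on to acids. Rdh enzymes convert retinol and retinaldehyde into each other, and some Aldh1a enzymes then make retinoic acid, the ligand of the retinoic acid receptors. Other Aldh enzymes sit in the breakdown of amino acids, in folate metabolism and in carnitine synthesis. Fmo enzymes use a flavin cofactor to add oxygen to nitrogen or sulfur atoms of drugs and metabolites, and the liver is a main site of all these reactions.

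Total counts were 1831461 in vehicle 1 and 9871762 to 12565393 in the other 5 libraries. Vehicle 1 was thus the shallowest, and a count of 3 equalled 1.61 CPM there and 0.243 to 0.313 CPM elsewhere (CPM is a level relative to the library size after TMM scaling, which corrects for library composition). Hepatocyte markers such as Alb summed to 108453 to 123903 CPM with vehicle and 113614 to 117014 CPM with atractylodin. Of the other marker lists measured, cholangiocyte markers summed to 41.6 to 51.7 CPM with vehicle and 21.8 to 27.1 CPM with atractylodin. Of the 6 cholangiocyte genes 3 were tested. Sox9 and Spp1 fell, and Epcam did not pass, with means of 1.38 and 1.82 CPM. Krt7, Krt19 and Cftr stayed at 1.12 CPM or less in every library. Sums of Kupffer cell (355 to 498 against 295 to 437 CPM), hepatic stellate cell (472 to 558 against 409 to 544 CPM) and endothelial markers (301 to 320 against 276 to 307 CPM) overlapped between groups. Single markers still moved: 1 of 10 stellate markers fell, and of 8 endothelial markers Fcgr2b and Stab2 fell and Lyve1 rose. Periportal hepatocyte markers summed to 2351 to 3091 CPM with vehicle and 4728 to 5574 CPM with atractylodin. Of these 10 genes, all tested, Pck1 rose, Hal fell and 8 did not pass. The higher sum rests on Pck1, with means of 1145 and 3644 CPM. Over the list 5 estimates were higher and 5 lower, with a median log2 fold change of -0.0086. Pericentral markers summed to 8433 to 8809 against 8647 to 10068 CPM, with 2 of 11 higher (Slc1a2 and Cyp1a2) and 3 lower (Lgr5, Lect2 and Rhbg). Over all tested rows 3.92% were called higher and 3.33% lower. Most of the pericentral sum was Cyp2e1, with means of 5505 and 6558 CPM, which did not pass. Over this list 4 estimates were higher and 7 lower, with a median log2 fold change of -0.17. Adipocyte markers summed to 8.65 to 37.3 against 2.40 to 9.37 CPM, blood markers to 1830 to 2330 against 1475 to 2870 CPM and pancreas markers to 14.8 to 23.7 against 15.3 to 29.4 CPM. The adipocyte sums rest on Cfd, the only tested marker of that list, which did not pass. The other adipocyte markers stayed at 0.54 CPM or less in every library. Of 6 blood markers Alas2 fell. Of 2 tested pancreas markers Cpb1 rose, and Cela1, most of the vehicle sums, did not pass (means of 18.4 and 11.3 CPM). Among untested pancreas markers, Cela2a read 0, 0.086 and 0 CPM with vehicle and 5.78, 0.63 and 1.92 CPM with atractylodin. Ctrb1, Prss2 and Pnlip were highest in atractylodin 1 (3.69, 2.59 and 1.89 CPM) and at 0 in atractylodin 2, and Cpa1 overlapped between groups. Adipoq was the 1 cell type marker at 0 in every library. In bulk liver, fewer cells of a type and less RNA per cell cannot be told apart, and the part of these cell types and liver zones in the results below was not tested.

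Most of these oxidoreductases did not pass the threshold given below, and a few passed beside near relatives that did not. Not passing does not show that a gene was unchanged or that it differed from its relative. Of the 46 members, 30 had enough counts to be tested. Fmo2 rose, Aldh1b1, Rdh9, Aldh1a7 and Adh6-ps1 fell, and 25 did not pass an adjusted p of 0.05 in edgeR's quasi-likelihood test over all 12505 tested rows. That is 3.33% of tested members higher and 13.3% lower, where the same test called 3.92% of all rows higher and 3.33% lower, or 7.25% in either direction. The median log2 fold change was -0.08 over the tested members and -0.0015 over all tested rows. The groups did not overlap for 8 tested members, or 26.7%, close to the 26.2% of all tested rows. Of the 4 falls, Aldh1b1 alone still passed without vehicle 1, and Adh6-ps1 alone without atractylodin 2, where Adh4 passed too. Without vehicle 3 Aldh1b1 and Rdh9 still passed, without atractylodin 1 or 3 Aldh1b1 and Aldh1a7 did, and without vehicle 2 Aldh1a7 was lost. The rise was lost without vehicle 3. Scaling by total counts called 6 falls, Adh4 and Aldh2 being added, and 1 rise. That scaling also moved the median log2 fold change of all tested rows to -0.087.

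**Figure D1:**
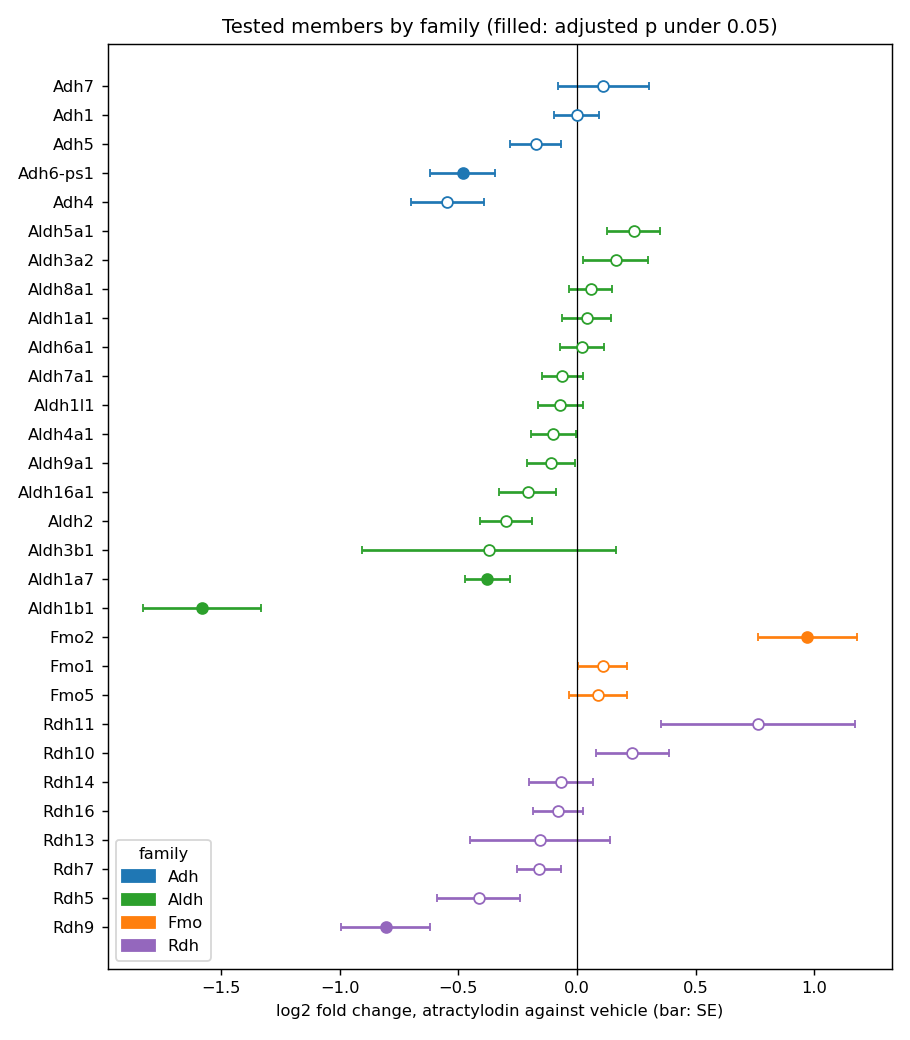
Log2 fold change of each tested member, atractylodin against vehicle, with the standard error as a bar. Members are grouped by family and filled points passed an adjusted p of 0.05. Aldh1b1 at -1.58 and Fmo2 at 0.97 lie farthest from 0 on either side, and most open points lie within 0.3 of it.

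Promoters of Aldh1a7, Rdh9, Fmo2 and Aldh1b1 are shown to let these changed genes be compared by sequence, with Aldh1a1 and Rdh16 as neighbouring relatives of the first pair that did not pass. Adh6-ps1 is not shown. Sequences are the 120 bases before a RefSeq transcript start on GRCm38.p6 (the build also called mm10), in which 34 of the 46 members had an entry. The counts come from 3′ ends and do not tell which start was used. Where a gene had 2 listed starts, the 1 followed by sequence found in a GENCODE M21 transcript is shown. For Aldh1a1 and Fmo2 the window chosen in this way lies inside the annotated gene (20492715 to 20643465 and 162874317 to 162898726). It is not upstream of the gene as a whole. The listed start left out lies just beyond the annotated 5′ end of each gene, at 20492583 and 162898758. The first 2 belong to Aldh1a7 (chr19:20727557-20727676, minus strand) and its relative Aldh1a1 (chr19:20601848-20601967, plus strand), with capitals where the aligned bases differ or face a gap. Of 120 bases, 109 were identical, and the alignment held 8 substitutions and 6 gap bases.
Aldh1a7: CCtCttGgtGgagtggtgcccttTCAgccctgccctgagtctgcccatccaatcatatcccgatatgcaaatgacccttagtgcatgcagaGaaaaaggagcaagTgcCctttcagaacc
Aldh1a1: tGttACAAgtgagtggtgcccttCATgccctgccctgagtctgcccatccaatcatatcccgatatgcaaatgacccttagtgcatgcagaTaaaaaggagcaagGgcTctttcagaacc

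The other 4 windows belong to Rdh9 (chr10:127776285-127776404, plus strand), its neighbour Rdh16 (chr10:127801033-127801152, plus strand), Aldh1b1 (chr4:45798902-45799021, plus strand) and Fmo2 (chr1:162898494-162898613, minus strand). Capitals mark matches on either strand to 6 short motifs. The core promoter motif searched was TATAAA, and the motif bound by nuclear factor Y was CCAAT. The motif searched for Sp factors was GGGCGG, and the E-box of basic helix-loop-helix factors was CACGTG. The half-site of many nuclear receptors was AGGTCA, and the half-site of the glucocorticoid receptor was AGAACA. In Rdh9 the matches to these last motifs overlap by 1 base. The 120 bases before the Fmo2 start that is not shown held no match to any of the 6.
Rdh9: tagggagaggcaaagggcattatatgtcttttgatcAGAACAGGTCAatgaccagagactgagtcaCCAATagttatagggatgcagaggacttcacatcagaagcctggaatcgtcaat
Rdh16: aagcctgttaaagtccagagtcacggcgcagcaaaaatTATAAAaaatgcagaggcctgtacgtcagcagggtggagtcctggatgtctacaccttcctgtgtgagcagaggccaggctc
Aldh1b1: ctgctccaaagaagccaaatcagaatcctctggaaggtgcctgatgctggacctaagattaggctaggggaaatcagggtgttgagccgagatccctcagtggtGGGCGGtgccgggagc
Fmo2: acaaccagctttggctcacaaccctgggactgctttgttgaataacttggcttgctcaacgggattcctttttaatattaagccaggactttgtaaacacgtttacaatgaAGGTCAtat

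Over the 250 bases before each of 32851 starts in the same table, the shares with at least 1 match were 12.4% for TATAAA, 33.8% for CCAAT, 32.7% for GGGCGG, 6.02% for CACGTG, 14.0% for AGGTCA and 16.1% for AGAACA. Aligned over their 120 bases, Rdh9 and Rdh16 had 57 identical bases, against the 109 of the Aldh1a pair. A match describes letters only and does not show that a factor binds.

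Among aldehyde dehydrogenases, Aldh1b1 had the largest change of any tested member. It encodes a mitochondrial enzyme that oxidises acetaldehyde and other aldehydes and lies on chromosome 4 (GRCm38, 45799022 to 45804604, plus strand). Its level was 74.8, 108 and 63.0 CPM in vehicle 1, 2 and 3 and 34.1, 26.3 and 22.6 CPM in atractylodin 1, 2 and 3. All 3 atractylodin libraries lay below the lowest vehicle library, and vehicle 2 was the highest of the 6. The means of 82.0 ± 23.4 and 27.7 ± 5.84 CPM (SD, n = 3) differed by -1.58 ± 0.25 (SE) in log2 units, or 2.99-fold, with an edgeR adjusted p of 0.0142. Without atractylodin 2 the log2 fold change was -1.55 and the adjusted p was 0.077, and the other 13 alternatives kept the call.

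Aldh2, the mitochondrial enzyme that removes most acetaldehyde formed from ethanol, did not pass. It stood at 2161, 1986 and 2361 CPM with vehicle and at 1546, 1733 and 2011 CPM with atractylodin, with vehicle 2 just below atractylodin 3. The log2 fold change was -0.30 ± 0.11 and the adjusted p was 0.11. It passed in 3 of 14 alternatives, namely scaling by total counts (adjusted p = 0.0304), no filter on low counts (0.0422) and leaving out atractylodin 3 (0.0452). Within each library, Aldh1b1 reads came to 3.86% ± 1.43 (SD, n = 3) of Aldh2 reads with vehicle and 1.62% ± 0.55 with atractylodin.

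Aldh1a7, a rodent relative of Aldh1a1 (chromosome 19, 20692953 to 20727562, minus strand), fell by a small amount. It read 151, 162 and 146 CPM with vehicle and 121, 107 and 126 CPM with atractylodin. Every vehicle library was above every atractylodin library, and atractylodin 2 was the lowest. The means were 153 ± 8.11 and 118 ± 9.93 CPM (SD, n = 3), and their log2 difference was -0.38 ± 0.10 (SE), with an edgeR adjusted p of 0.0208. The call was lost without vehicle 1, 2 or 3 and without atractylodin 2, with adjusted p of 0.0572 to 0.0944.

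Aldh1a1 itself, a cytosolic enzyme that makes retinoic acid from retinaldehyde, read 1331, 1546 and 1523 CPM with vehicle and 1345, 1623 and 1558 CPM with atractylodin. The groups overlapped and the log2 fold change was 0.04 ± 0.10 (adjusted p = 0.864). Aldh1a7 reads were 11.4%, 10.5% and 9.57% of Aldh1a1 reads in the vehicle libraries and 8.98%, 6.56% and 8.06% in the atractylodin libraries, without overlap. That ratio does not depend on how libraries are scaled. The genes are 49.5 kb apart on opposite strands, and no run of 50 bases in the last 500 of the longest Aldh1a7 or Aldh1a1 transcript recurred in another gene's transcripts.

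Of the other 10 tested Aldh genes none passed. The enzymes of amino acid breakdown had log2 fold changes between -0.10 and 0.24, with means of 199 and 186 CPM for Aldh4a1 (proline), 57.2 and 67.6 CPM for Aldh5a1 (GABA), 195 and 198 CPM for Aldh6a1 (valine), 268 and 257 CPM for Aldh7a1 (lysine) and 271 and 282 CPM for Aldh8a1 (tryptophan). Aldh5a1 read 56.0, 50.5 and 65.0 CPM with vehicle and 65.8, 65.9 and 71.2 CPM with atractylodin, just without overlap (adjusted p = 0.227). The fatty aldehyde enzyme Aldh3a2 stood at 451 ± 90.0 and 507 ± 65.7 CPM (SD, n = 3). Aldh9a1 of carnitine synthesis (log2 -0.11), the folate enzyme Aldh1l1 (-0.07), Aldh16a1 (-0.21) and Aldh3b1 (-0.37 at 1.27 and 1.13 CPM) completed the family. In adjusted p these 10 ranged from 0.227 to 0.916.

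Rdh9, a short-chain dehydrogenase that oxidises retinols and hydroxysteroids, was the only retinol dehydrogenase to pass (chromosome 10, 127776386 to 127792697, plus strand). Its level was 85.1, 119 and 70.7 CPM with vehicle and 47.9, 51.6 and 58.7 CPM with atractylodin. The vehicle libraries were the more scattered, and all lay above the atractylodin libraries. The means were 91.7 ± 25.0 and 52.7 ± 5.48 CPM (SD, n = 3), and the log2 difference was -0.81 ± 0.19 (SE), with an edgeR adjusted p of 0.0382. Leaving out vehicle 1 raised the adjusted p to 0.101, and leaving out atractylodin 1, 2 or 3 raised it to 0.157, 0.145 or 0.0688. The other alternatives kept the call. An exon of the annotated gene Rdh16f1 on the same strand covers the 3′ end of Rdh9, so reads of the 2 cannot be told apart. Transcripts of Vmn2r99 also hold runs of 50 bases found in that end.

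Rdh7, a relative on the other strand of the same cluster, read 1320, 1153 and 1269 CPM with vehicle and 1117, 1123 and 1110 CPM with atractylodin. The groups did not overlap, yet the log2 fold change of -0.16 ± 0.09 did not pass (adjusted p = 0.348). Rdh16 overlapped, at 138 ± 19.1 and 130 ± 5.74 CPM (SD, n = 3), and did not pass (log2 -0.08 ± 0.10, adjusted p = 0.713). Rdh9 reads were 6.44%, 10.4% and 5.58% of Rdh7 reads with vehicle and 4.29%, 4.59% and 5.29% with atractylodin. The gap between the groups in this ratio was narrow, since vehicle 3 lay just above atractylodin 3.

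The retinol and retinaldehyde enzymes outside the cluster did not pass. Rdh5, best known from the visual cycle, had means of 17.4 and 13.6 CPM (log2 -0.41 ± 0.18, adjusted p = 0.174). Rdh10, which makes retinaldehyde from retinol, had means of 20.5 and 23.8 CPM (0.23 ± 0.15, adjusted p = 0.415). Rdh11, an enzyme that reduces retinaldehyde, had means of 1.81 and 3.71 CPM, with 0.54, 1.89 and 2.99 CPM in the vehicle libraries (log2 0.77 ± 0.41, adjusted p = 0.295). Vehicle 1 held a single Rdh11 count, so this gene was measured poorly there. Rdh13 (4.67 and 4.61 CPM) and Rdh14 (28.4 and 27.9 CPM) were close to equal in their means.

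Fmo2, a flavin-containing monooxygenase best known from lung, was the only member that rose (chromosome 1, 162874317 to 162898726, minus strand). It read 9.15, 7.73 and 6.95 CPM with vehicle and 12.9, 18.3 and 13.9 CPM with atractylodin. All 3 atractylodin libraries were above the highest vehicle library, which was vehicle 1 with 17 counts. The means of 7.94 ± 1.11 and 15.0 ± 2.88 CPM (SD, n = 3) differed by 0.97 ± 0.21 (SE) in log2 units, or 1.96-fold, with an edgeR adjusted p of 0.00742. Without vehicle 3 the adjusted p was 0.0615, and after reads were drawn down to the depth of vehicle 1 it was 0.143.

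The other expressed Fmo genes did not pass. Fmo5 stood at 961, 939 and 687 CPM with vehicle and 969, 821 and 958 CPM with atractylodin, and vehicle 3 was the lowest library (log2 0.09 ± 0.12, adjusted p = 0.733). Fmo1, the neighbour of Fmo2 at a distance of 7.71 kb, had means of 112 ± 10.9 and 121 ± 12.3 CPM (SD, n = 3, log2 0.11 ± 0.10, adjusted p = 0.595). Fmo2 reads came to 7.16% ± 1.33 of Fmo1 reads with vehicle and 12.3% ± 1.66 with atractylodin (SD, n = 3).

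The alcohol dehydrogenase genes lie in 1 cluster of 238 kb on chromosome 3. Adh1, the main ethanol-oxidising enzyme of liver, read 2159, 2010 and 1937 CPM with vehicle and 1997, 2186 and 1913 CPM with atractylodin. Its groups overlapped fully (log2 -0.0017 ± 0.10, edgeR adjusted p = 0.995). Adh5, the glutathione-dependent formaldehyde dehydrogenase, had means of 246 ± 18.4 and 217 ± 32.5 CPM (SD, n = 3; log2 -0.17 ± 0.11, adjusted p = 0.376), and Adh7, a retinol-oxidising enzyme best known from stomach, 13.8 and 14.5 CPM (adjusted p = 0.79).

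Adh4 fell just short of the threshold. It read 74.8, 68.8 and 91.0 CPM with vehicle and 41.4, 61.1 and 59.0 CPM with atractylodin, so the groups did not overlap. The means were 78.2 ± 11.5 and 53.8 ± 10.8 CPM (SD, n = 3), and their log2 difference was -0.55 ± 0.15 (SE), with an edgeR adjusted p of 0.0516. It passed in 7 of 14 alternatives, DESeq2 among them (adjusted p = 0.0261), and its adjusted p ranged from 0.000134 to 0.206 over them. Without vehicle 3 the log2 fold change was -0.40, and without atractylodin 1 it was -0.39.

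Adh6-ps1, a transcribed pseudogene 20.5 kb from Adh4, read 56.0, 44.8 and 54.9 CPM with vehicle and 31.0, 43.5 and 35.8 CPM with atractylodin. Vehicle 2 and atractylodin 2 nearly met. The means were 51.9 ± 6.16 and 36.8 ± 6.33 CPM (SD, n = 3), and their log2 difference was -0.48 ± 0.14 (SE), with an edgeR adjusted p of 0.0395. This was the least stable of the 5 calls, being lost in 8 of 14 alternatives, among them DESeq2 (adjusted p = 0.065), limma-voom (0.0713) and the fits without vehicle 1, vehicle 3, atractylodin 1 or atractylodin 3 (0.0964 to 0.196).

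**Figure D2:**
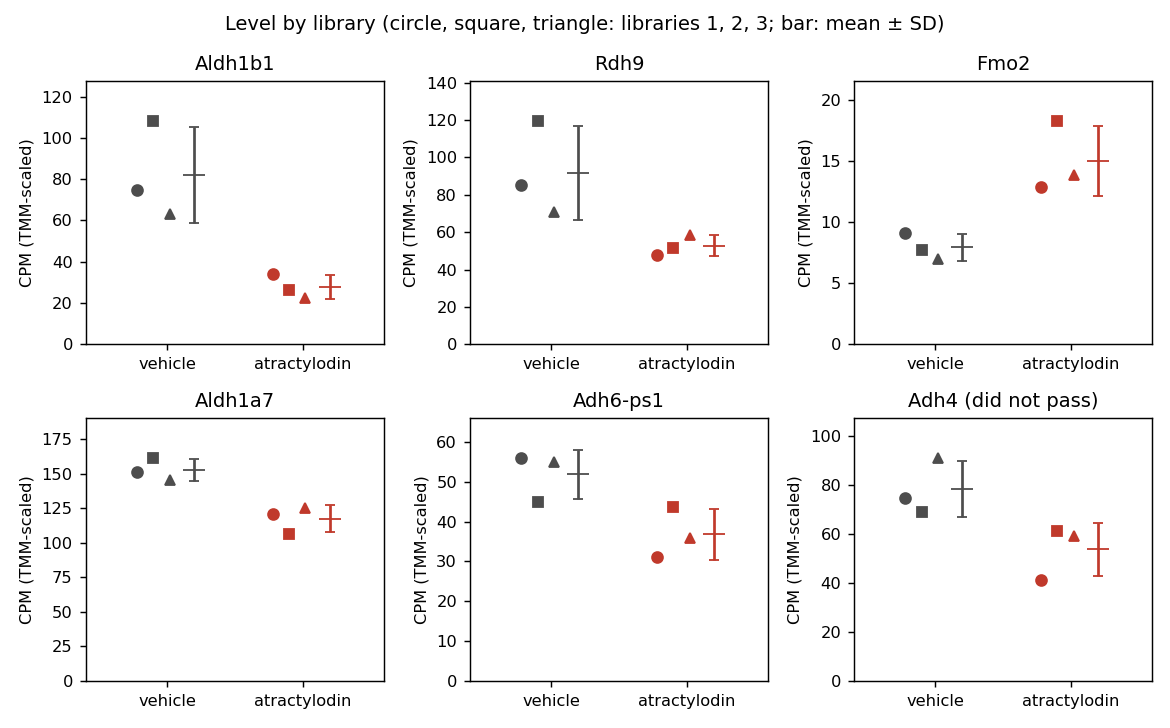
CPM of the 5 members that passed and of Adh4, which did not, in each library. Symbols mark libraries 1, 2 and 3 of a group and bars give the mean and SD of 3 libraries. In all 6 panels the groups do not overlap, with the widest gap for Aldh1b1 and the narrowest for Adh6-ps1.

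Neighbouring genes of a cluster had both similar and unlike values. The adjacent Adh6-ps1 and Adh4 were both lower by a similar amount, with Adh4 just short of the threshold. In the Adh cluster the tested genes ran from 0.11 for Adh7 at one end through -0.48 and -0.55 for Adh6-ps1 and Adh4 to -0.17 for Adh5 at the other. Of the Fmo genes that lie together on chromosome 1, Fmo1 and Fmo2 were tested, and among 5 Rdh genes within 129 kb on chromosome 10, Rdh9, Rdh16 and Rdh7. The ratio of reads within each library is shown for 8 pairs as a description. The pairs were chosen after their values were seen, mostly to set a gene with a large difference beside one with a small one, so their separation between groups was set by that choice and carries no test.

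**Figure D3:**
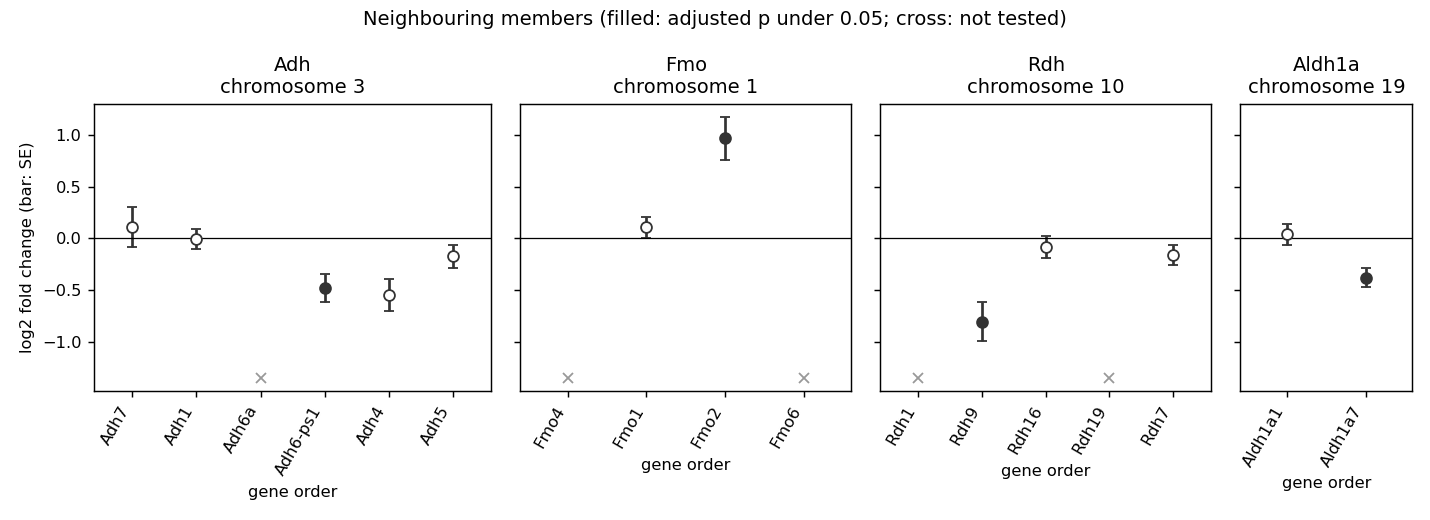
Log2 fold change with SE of neighbouring members in chromosome order, without distances to scale. Filled points passed an adjusted p of 0.05 and crosses mark members that were not tested (1 untested member is not shown). Each cluster holds 1 filled point beside open points nearer to 0, except Adh4 at -0.55, which lies beyond the filled Adh6-ps1.

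**Figure D4:**
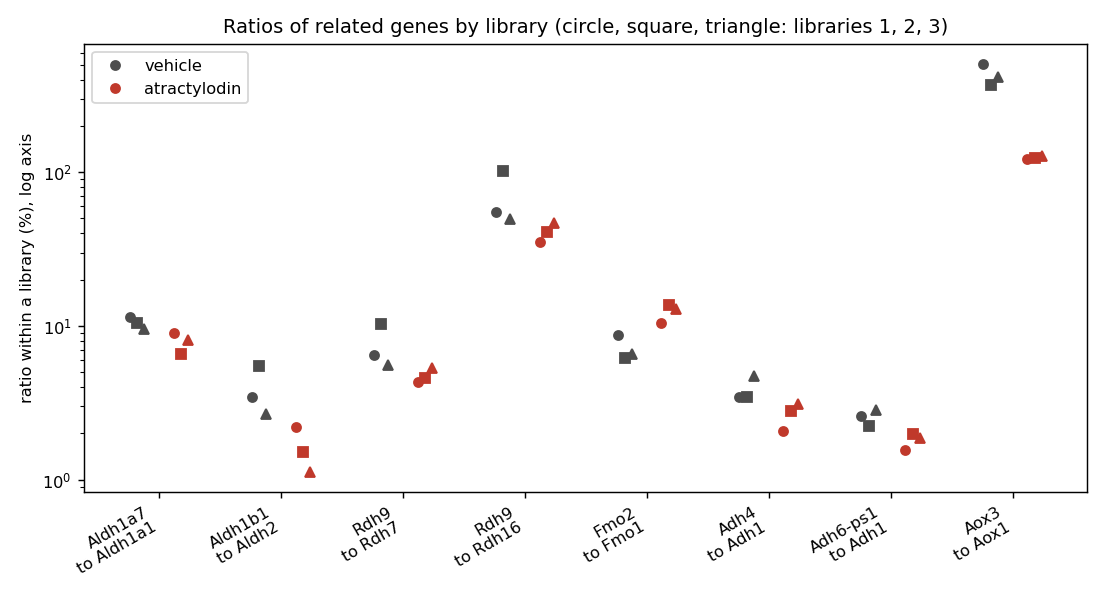
Ratio of 2 related genes within each library, in percent on a log axis, for 7 pairs of members and for the aldehyde oxidases Aox3 and Aox1. Symbols mark libraries 1, 2 and 3 of each group. The pairs were chosen after their values were seen, and the widest separation is that of Aox3 to Aox1 at 429% against 124%.

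As a whole the 46 genes took 1.08% to 1.11% of all counts in the vehicle libraries and 0.95% to 1.0% in the atractylodin libraries. These shares are not TMM-scaled. Under scaling by total counts the median log2 fold change was -0.16 over tested members and -0.087 over all tested rows. A median below 0 under this scaling was thus not particular to the members. A median weighs every gene alike and does not account for a summed share, and the reason for the lower share was not tested. Summed Rdh levels were 1621, 1469 and 1561 CPM with vehicle and 1372, 1381 and 1366 CPM with atractylodin, without overlap, and Rdh7 made up most of that sum. Summed Aldh levels were 5458, 5646 and 5869 CPM against 4853, 5411 and 5438 CPM, also without overlap. The Adh sums (2325 to 2571 against 2226 to 2560 CPM) and the Fmo sums (801 to 1076 against 973 to 1105 CPM) overlapped. These sums rest mainly on Adh1, Aldh2, Aldh1a1, Fmo5 and Rdh7, none of which passed.

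Adh6a, Aldh3a1, Fmo9 and Rdh8 had 0 counts in all 6 libraries. The other 12 members that were not tested held 1 to 44 counts over the 6 libraries. Among them were Aldh18a1, Aldh1a2, Aldh1a3, Aldh1l2, Aldh3b2, Aldh3b3, Fmo4, Fmo6, Rdh1, Rdh12 and Rdh19. Aldh1a2 and Aldh1a3, which make retinoic acid in many tissues, had 16 and 12 counts. Differences in these genes were not detectable at this depth.

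Other proteins that bind, carry or convert retinoids held calls in both directions. Of 28 listed genes 21 were tested, 4 fell, 1 rose and 16 did not pass, with a median log2 fold change of -0.13. Over all tested rows, 3.92% were called higher and 3.33% lower, and the median was -0.0015. The 1 rise is thus near the share of all rows. Of the 4 falls on the list, Rxrg, Stra6l and Dhrs3 are described here. The retinoid X receptor gene Rxrg had means of 12.1 ± 0.70 and 5.19 ± 1.61 CPM (SD, n = 3), lower at an edgeR adjusted p of 0.00559. Stra6l, which encodes a receptor for retinol-binding protein, read 66.7, 72.5 and 72.1 CPM with vehicle and 47.2, 31.8 and 50.8 CPM with atractylodin (log2 -0.71 ± 0.15, adjusted p = 0.00909). Rxrg passed whichever library was left out, and Stra6l in all of these fits but that without vehicle 3 (adjusted p = 0.0538).

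The remaining 2 retinoid calls lie outside the naming rule and were picked after seeing their values. Dhrs3, which reduces retinaldehyde to retinol, went from 85.0 ± 3.07 to 63.9 ± 7.69 CPM (SD, n = 3, edgeR adjusted p = 0.0215), a call lost in all fits without 1 library except that without atractylodin 2. Rbp4, the carrier that takes retinol from liver into blood, was the 1 rise, from 5127 ± 293 to 6773 ± 497 CPM (SD, n = 3, adjusted p = 0.0174). Its call was lost without vehicle 1, vehicle 3 or atractylodin 2 (adjusted p of 0.0793 to 0.113) and under scaling by total counts (0.0615). Without vehicle 1 the list held 3 falls and 0 rises. After thinning to the depth of vehicle 1 it held 1 fall and 1 rise, and Rxrg, Stra6l and Dhrs3 did not pass (adjusted p of 0.0717, 0.0681 and 0.159). Ttr, the plasma partner of Rbp4 and the gene with the most counts on the list, had means of 13223 and 11290 CPM (log2 -0.23 ± 0.09, adjusted p = 0.163).

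Enzymes of other classes that act on alcohols, aldehydes or acetate also changed in both directions. Of 20 tested, Aox1 and Cbr1 rose, Aox3 fell and 17 did not pass, with a median log2 fold change of -0.05. The shares over all tested rows were 3.92% higher and 3.33% lower, with a median of -0.0015. Aox1 and Aox3 encode aldehyde oxidases, which use molybdenum and flavin cofactors, and lie 6.72 kb apart on chromosome 1 on the same strand. Aox1 read 52.2, 49.3 and 58.3 CPM with vehicle and 78.3, 105 and 96.2 CPM with atractylodin (log2 0.80 ± 0.12, edgeR adjusted p = 0.000519). Aox3 read 263, 182 and 242 CPM with vehicle and 95.8, 129 and 123 CPM with atractylodin (log2 -0.97 ± 0.15, adjusted p = 0.00391). Both passed in all 14 alternatives, and Aox3 came to 429% ± 68.1 of Aox1 with vehicle and 124% ± 3.30 with atractylodin (SD, n = 3).

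The carbonyl reductase gene Cbr1 went from 89.6 ± 13.5 to 140 ± 15.8 CPM (SD, n = 3, edgeR adjusted p = 0.0032), a call lost only when libraries were thinned to vehicle 1 (adjusted p = 0.0635). Cyp2e1, the microsomal ethanol-oxidising P450 and the gene with the most counts on this list, had means of 5505 and 6558 CPM and did not pass (log2 0.25 ± 0.10, adjusted p = 0.154). Catalase, encoded by Cat, had means of 1724 and 1611 CPM (adjusted p = 0.584).

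Enzymes that share a pathway with single Aldh genes held 1 call. Of 25 tested, 1 fell and 24 did not pass in edgeR's quasi-likelihood test, with a median log2 fold change of -0.10. The share called lower was near the 3.33% of all tested rows, whose median was -0.0015. The fall was of Ftcd, a folate enzyme of histidine breakdown (348, 287 and 330.5 CPM against 227, 179 and 239 CPM, log2 -0.58 ± 0.11, adjusted p = 0.00465), which passed in all 14 alternatives. Oat, the gene with the most counts on this list, had means of 614 and 548 CPM (adjusted p = 0.342). Scaling by total counts called 4 falls on this list, and it moved the median log2 fold change of all tested rows to -0.087.

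**Figure D5:**
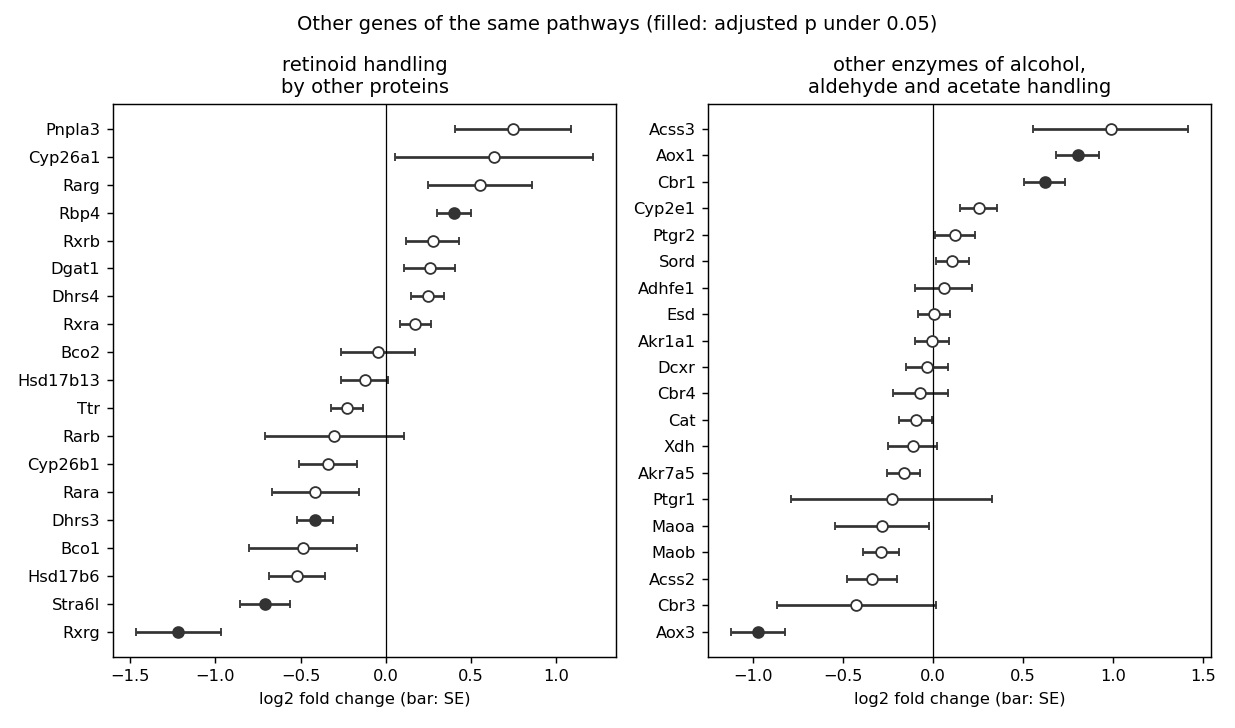
Log2 fold change with SE for tested genes of the retinoid list (2 genes are not shown) and of the list of other alcohol, aldehyde and acetate enzymes. Filled points passed an adjusted p of 0.05. Rxrg has the lowest value shown on the left, and on the right Aox3 is lowest and Aox1 is highest of those that passed.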

How the data were processed

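Liver RNA extracted with Trizol (500 ng per library) went into Lexogen QuantSeq libraries, per the labels' protocols. The authors deposited raw read counts for each gene symbol, not normalized. Bowtie2, bedtools and mm10 are named in the submitters' processing notes without roles. Annotation, strand setting, handling of multiply matching reads and molecular identifiers are not given in the sources used here, so overlapping genes may share reads and floors cover counting error only. Of the tested members, 6 overlap a same-strand gene and 9 an opposite-strand gene in the annotation.

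All 23282 rows (44 repeat a symbol) were filtered with filterByExpr, scaled by TMM and tested by quasi-likelihood with robust settings in edgeR 4.0.16 (R 4.3.3), without covariates, with Benjamini-Hochberg adjustment over 12505 rows and a threshold of 0.05. Standard errors were derived from each fold change and its F statistic. The fit was also run on simulated counts with the same dispersion for every gene, a simpler setting than these libraries. That run does not show how far calls here depend on a single library. Members and lists were chosen with earlier results of these data known. Full statistics were given for members that passed, for the 2 members with the highest mean CPM per family that did not, and for up to 3 passing genes and the gene with the highest mean CPM of each related list. Adh4 and other members were described beyond that rule.

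Alternatives were DESeq2 1.42.0, limma-voom (limma 3.58.1), RLE scaling, total counts, no filter, a minimum mean CPM of 5, a block for replicate number, thinning to the depth of vehicle 1, and leaving out each library. Promoters were aligned with Biopython 1.88. Positions are from GENCODE M21. Neither a batch nor a date is labelled. Plots were drawn in matplotlib 3.10.9. Individual values of some genes are not reported here.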

Additional observations from a re-analysis of the deposited data

How the results depend on the processing

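Against 4 falls and 1 rise among the members and 906 calls over all rows, the fits that left out 1 library gave 1 to 4 falls, 0 to 1 rises and 467 to 751 calls. These counts include Adh4 and Aldh2 where they passed. Thinning to vehicle 1 gave 0 rises, 4 falls and 509 calls. No alternative turned the direction of a called member. With the replicate block there were 1 rise, 4 falls and 811 calls. Deviations of same-numbered libraries from their group means correlated at -0.04, -0.10 and 0.04, and those of differently numbered libraries at -0.11 to 0.15. With 3 libraries per group, 1 of them shallow, these values cannot decide whether the numbers pair libraries. No filter gave 1 rise, 6 falls and 1345 calls, and limma-voom 1, 3 and 825. Vehicle 1 limits genes of a few CPM, such as Rdh11, Rdh13 and Aldh3b1, which had too few counts to be tested after thinning.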

Other observations

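Within 100 kb of the 5 members that passed, 14 pairings with a tested gene were found, and 1 of these neighbours passed, a share near the 7.25% of all tested rows that passed, so nothing is read from it. It was Stra6l, the retinol-binding protein receptor gene, 44.1 kb beyond Aldh1b1 on chromosome 4 (GRCm38, 45848664 to 45887008). Aldh1b1 and Stra6l both fell, with log2 fold changes of -1.58 and -0.71. Stra6l was the only tested gene in that window around Aldh1b1. Beside Adh6-ps1, Adh4 stood at -0.55 (edgeR adjusted p = 0.0516) and Metap1 at 0.29 (adjusted p = 0.183). Around Rdh9, 6 tested neighbours had adjusted p of 0.347 to 0.924. The window size was chosen after the values were seen.

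In the 40 promoter windows of 250 bases that matched members, CCAAT was found in 23, AGGTCA in 11, GGGCGG in 9, TATAAA in 7, AGAACA in 6 and CACGTG in 4. In the same order, 33.8%, 14.0%, 32.7%, 12.4%, 16.1% and 6.02% of all 32851 windows held a match. The member counts cover 34 members, some with 2 listed starts. They are a description of letters and were not tested against the changes in expression.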
